A study of Mus musculus with 7 samples.

Results

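The 31 genes described here are expressed by the fibroblasts and barrier cells of the meninges, the connective tissue that wraps the brain. They were chosen by symbol, with earlier results of these data known. All 31 were measured among the 18193 mouse genes that the arrays represent with a probe set of a single symbol. The tissue was hypothalamus from 3-month-old mice, on mouse430_2 expression arrays, with 3 arrays of the genotype labelled Creb-PomcCre-/- and 4 arrays labelled wild type. In the first group, called knockout below, Creb was deleted by a Cre recombinase under control of Pomc, the gene of the melanocortin precursor made in arcuate neurons. The labels do not say whether the wild-type mice carried Cre or an altered Creb allele, or whether an array holds RNA of 1 mouse or of several. They number the samples as biological replicates and give no batch. All values are the deposited log2 expression values, and every difference is knockout minus wild type, with limma's standard error (SE).

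The meninges consist of the dura, the arachnoid and the pia. Their fibroblasts lay down collagens and small proteoglycans, and they secrete retinoic acid and bone morphogenetic proteins, which act on the developing cortex and skull. The arachnoid also holds a layer of barrier cells, joined by E-cadherin, that carries transporters for amino acids, sulfate and organic ions between blood and cerebrospinal fluid. The hypothalamus lies at the base of the brain and is covered by pia and arachnoid. In RNA from whole tissue, fewer cells of a type and less RNA per cell cannot be told apart.

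Several facts about the arrays bear on the results. Creb1 averaged 9.45 ± 0.027 in the 3 knockout arrays and 9.49 ± 0.083 in the 4 wild-type arrays (SD), which does not check the labels, since Pomc cells are a small part of this tissue. The orexin gene Hcrt, a marker of the hypothalamus, read 12.41 to 12.78 in knockout arrays and 12.02 to 12.59 in wild-type arrays. Of 14 listed hypothalamic neuron genes, 11 were higher in the knockout and 3 lower (48.5% of all genes were lower). Their summed signal, on the linear scale, was 34980 to 40010 in knockout arrays and 30840 to 40770 in wild-type arrays, lowest in wild-type array 2. Sex is not in the labels. The X-inactivation transcript Xist and 3 Y-linked transcripts marked knockout arrays 2 and 3 and wild-type arrays 2 and 3 as male, and the other arrays as female. Wild-type arrays 2 and 3 stood apart from the remaining 5 arrays in the meningeal genes, and results are therefore also given without them.

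**Figure D1:**
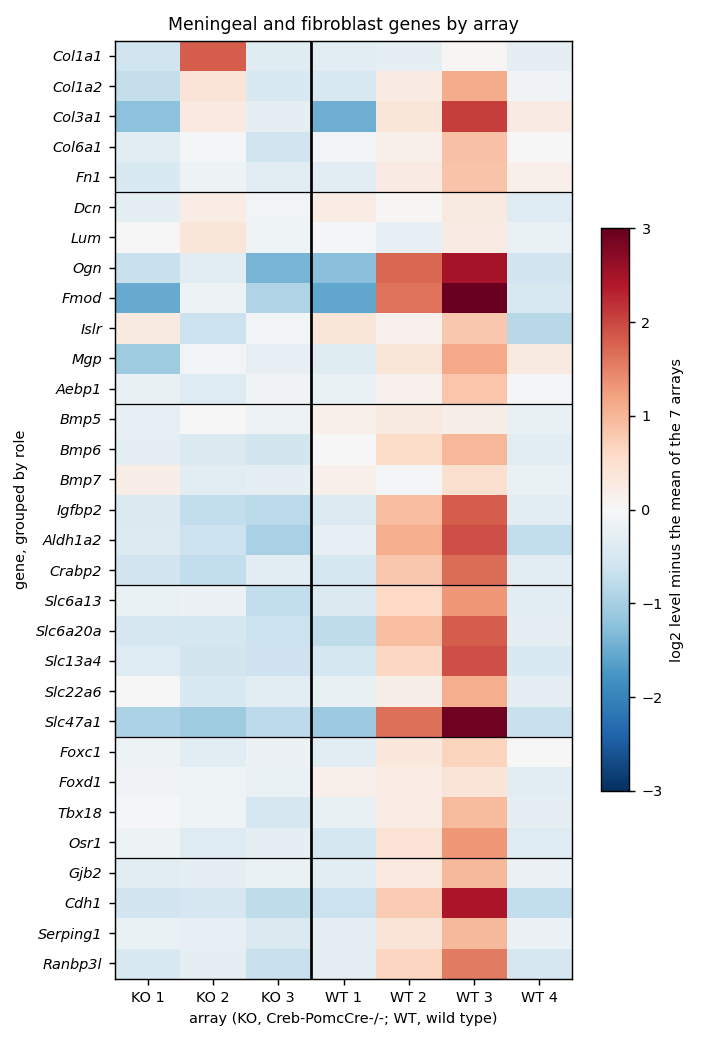
Each row is a gene and each column an array, with knockout arrays (KO) left of wild-type arrays (WT). Colour is the log2 level minus the gene's mean over the 7 arrays, and horizontal lines separate the roles. Wild-type array 3 was the highest of the 7 arrays for 28 of the 31 genes, and the isolated dark cell in the top row is Col1a1 in knockout array 2.

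Most of these genes varied widely among the wild-type arrays. Wild-type array 3 was the highest of the 7 arrays for 28 of the 31 genes, whereas it was the highest for 15.4% of all genes tested. For 25 of the 31, wild-type arrays 2 and 3 were the 2 highest of all, against 5.44% of all genes. The median gene stood 1.09 above its mean over all arrays in wild-type array 3 and 0.35 above it in wild-type array 2. It stood 0.31, 0.27 and 0.37 below its mean in knockout arrays 1, 2 and 3, and 0.32 and 0.28 below it in wild-type arrays 1 and 4. Wild-type arrays 1 and 4 thus lay at the level of the knockout arrays.

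The range over the arrays of a genotype shows the same contrast. It reached at least 1 on the log2 scale, a 2-fold difference, for 5 of the 31 genes among knockout arrays (0.621% of all genes) and for 23 of the 31 among wild-type arrays (1.46% of all genes). The median range was 0.42 among knockout arrays and 1.5 among wild-type arrays. Over all genes the medians were 0.16 among knockout arrays and 0.19 among wild-type arrays. Among the 100 genes with the largest wild-type range and a mean level above 5.05, under which probe sets were counted as dim, 13 belonged to the 31. The spread in wild type was also uneven within the gene group. It was 4.54 for Fmod and 4.02 for Slc47a1, and only 0.39 for Col1a1, 0.49 for Lum and 0.49 for Bmp5.

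**Figure D2:**
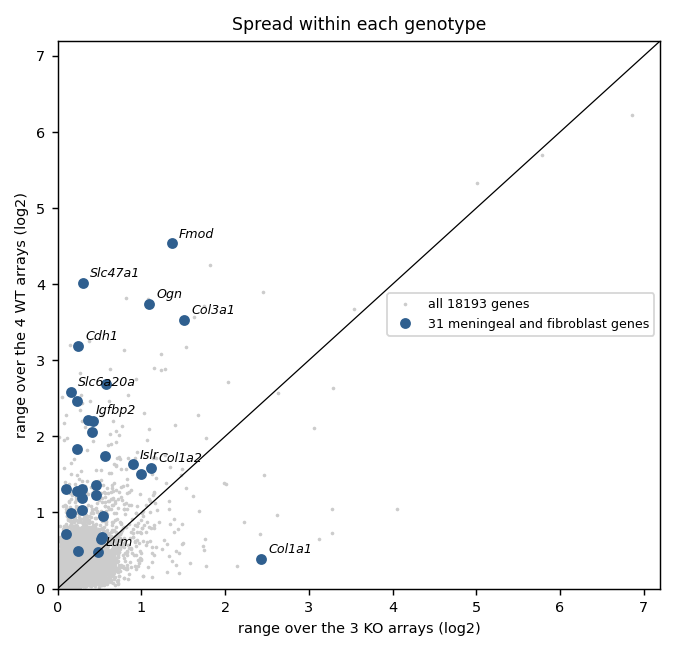
The horizontal axis is the highest minus the lowest of the 3 knockout arrays and the vertical axis the same over the 4 wild-type arrays, both in log2 units. Grey points are all genes, blue points the 31 meningeal and fibroblast genes, and the line marks equal ranges. Fmod, Slc47a1, Ogn, Col3a1 and Cdh1 lie at the top left, with wild-type ranges of 3.19 to 4.54, and Col1a1 lies at the lower right, with a knockout range of 2.43.

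Set by genotype, 29 of the 31 genes had a lower mean in the knockout (48.5% of all genes), and the median difference was -0.54, against 0.0036 over all genes. None passed the threshold of an adjusted p under 0.05 over all genes tested, which 0.011% of genes passed. The lowest adjusted p among the 31 was 0.371, for Bmp6 (limma, Benjamini-Hochberg). At an unadjusted p under 0.05 there were 5, Bmp6, Col6a1, Mgp, Igfbp2 and Fn1, all lower in the knockout (6.12% of all genes were lower at this level). Pairing the same-numbered arrays 1, 2 and 3 in a blocked fit brought 18 of the 31 to this level (11.4% of all genes), and 11 reached it in those arrays unpaired (9.15% of all genes), with 0 past the adjusted threshold in either fit. Groups that did not overlap were found for 1 gene, Igfbp2, with the knockout below, where 6.05% of all genes had such groups.

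The median difference was smaller in size when wild-type arrays 2 and 3 were left out. They were picked for their high values in these same genes, so that outcome was fixed in advance. Without wild-type array 3 the median was -0.27, and without both wild-type arrays 2 and 3 it was -0.032, with 19 of the 31 genes lower and 0 at an unadjusted p under 0.05 (limma; 6.67% of all genes). That comparison sets 1 female and 2 male knockout arrays against 2 female wild-type arrays. Single arrays also moved the count of 5. Leaving out wild-type array 1 gave 19 (14.5% of all genes) and leaving out wild-type array 4 gave 11 (9.15% of all genes). It was 2 without knockout array 1 (11.5% of all genes), as it was when knockout array 2 (8.13%) or wild-type array 3 (9.5%) was dropped. It was 0 when knockout array 3 (10.5%) or wild-type array 2 (9.4%) was.

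Wild-type arrays 2 and 3 are both male, and so are knockout arrays 2 and 3. Over the 31 genes, knockout arrays 2 and 3 had median deviations of -0.27 and -0.37 from the mean over all arrays. For the 5 collagen and fibronectin genes, the median deviation was 0.29 in knockout array 2 and 0.24 in wild-type array 2. The male wild-type arrays are those picked for high values in these same genes, so the direction of the male contrast was fixed in advance. The test between the sexes below rests on the same arrays. Among males, both knockout arrays lay below both wild-type arrays for 27 of the 31 genes (20.8% of all genes), with a median difference of -1.01. Of the 31, 24 reached an unadjusted p under 0.05 (limma; 10.5% of all genes). In females, where the knockout has a single array, that array lay below both wild-type arrays for 9 genes (32.1% of all genes) and above both for 8 (35.1% of all genes), with a median difference of -0.061, and 1 gene, Mgp, at an unadjusted p under 0.05 (limma; 4.28% of all genes). Neither contrast brought a gene past the adjusted threshold, with lowest adjusted p-values of 0.0921 in males and 0.999 in females (limma, 4 groups by sex and genotype). The test of the difference between the sexes reached an unadjusted p under 0.05 for 19 of the 31 (3.67% of all genes). All 19 had the more negative difference in males, and none passed after adjustment (adjusted p = 1.0 for each). In females the differences of these 19 genes had both signs, from -0.475 for Fmod to 0.298 for Osr1. Sex as a covariate gave 20 genes at an unadjusted p under 0.05 (12.8% of all genes) and a lowest adjusted p of 0.261 (limma).

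**Figure D3:**
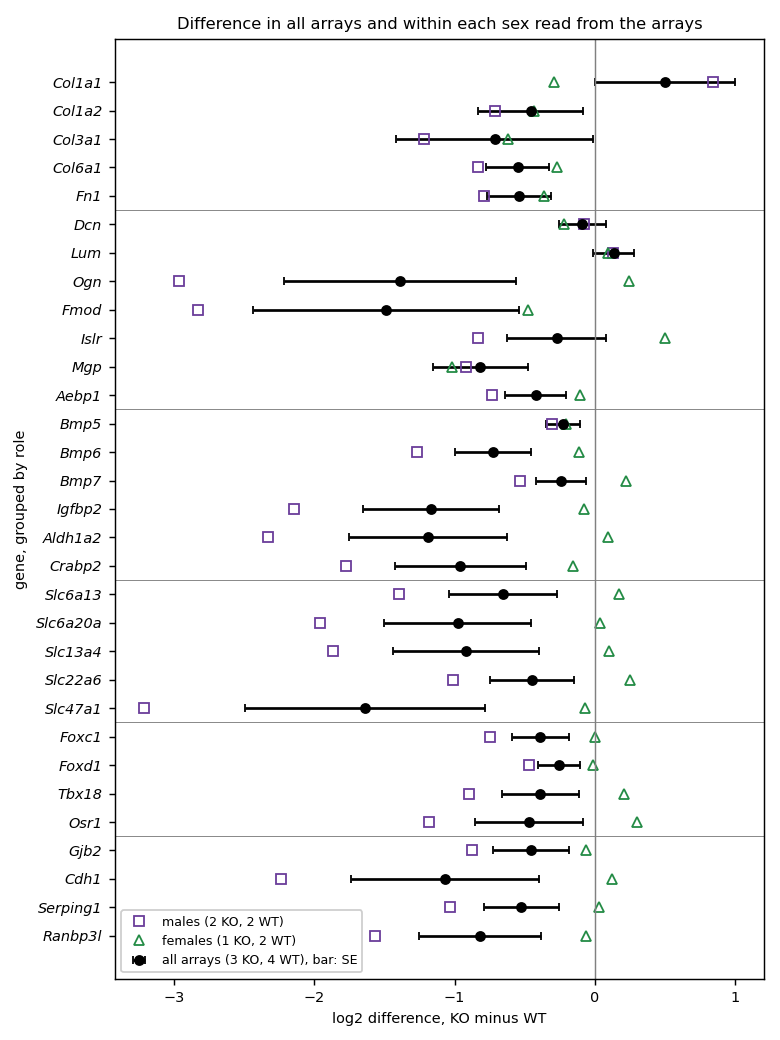
Log2 differences, knockout minus wild type, for each gene: filled circles with SE bars from all arrays, open squares from the male arrays, open triangles from the female arrays. For most genes the square lies well to the left of 0, as for Slc47a1 at -3.21 and Ogn at -2.96, and the triangle close to 0. Mgp, Dcn, Lum and Bmp5 have squares and triangles close together.

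All 6 secreted signal and retinoid genes had a lower mean in the knockout, with a median difference of -0.84, and in males both knockout arrays lay below both wild-type arrays for each of them. Igfbp2 encodes a protein that binds insulin-like growth factors and is secreted by the leptomeninges. Its levels were 6.75, 6.44 and 6.38 in knockout arrays 1 to 3, against 6.78, 8.12, 8.999 and 6.86 in wild-type arrays 1 to 4. The groups did not overlap, but knockout array 1 lay just under wild-type array 1, and the difference was -1.17 ± 0.48 (SE; limma, adjusted p = 0.404). In males alone, where the wild-type arrays are the high arrays 2 and 3, it was -2.15 ± 0.25, and in females -0.076 ± 0.31 (SE).

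Aldh1a2 encodes the retinaldehyde dehydrogenase that makes retinoic acid in the meninges. It read 5.28, 5.03 and 4.70 in knockout arrays, against 5.43, 6.77, 7.62 and 4.94 in wild-type arrays. Wild-type array 4 lay within the knockout range, and the difference was -1.19 ± 0.56 (SE; limma, adjusted p = 0.453). Crabp2, which carries retinoic acid to its nuclear receptor, read 4.99, 4.83 and 5.25 in knockout arrays, against 5.04, 6.39, 7.24 and 5.26 in wild-type arrays. Wild-type arrays 2 and 3 were again the highest and wild-type array 1 lay within the knockout range, with a difference of -0.96 ± 0.47 (SE; limma, adjusted p = 0.462).

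The 3 related bone morphogenetic proteins of the group differed in their spread. Bmp6 read 5.77, 5.60 and 5.48 in knockout arrays, against 6.03, 6.59, 7.03 and 5.72 in wild-type arrays. Only wild-type array 4 fell among the knockout values, and the difference was -0.73 ± 0.27 (SE; limma, adjusted p = 0.371). Bmp7 ranged from 6.71 to 7.23 in knockout arrays and from 6.83 to 7.51 in wild-type arrays, with a difference of -0.24 ± 0.18 (SE), and its other probe sets differed by -0.10 and -0.21. Bmp5 was the single gene of the 31 whose highest array was wild-type array 2. It ranged from 6.08 to 6.33 in knockout arrays and from 6.11 to 6.60 in wild-type arrays, with a difference of -0.23 ± 0.12 (SE).

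Other genes of these pathways, taken from lists, were not widely spread, with median wild-type ranges of 0.28, 0.23 and 0.34 for the retinoic acid, bone morphogenetic protein and insulin-like growth factor lists. Of 15 retinoic acid pathway genes 7 were lower in the knockout (48.5% of all genes), with a median of 0.015. Wild-type array 3 was the highest for 3 of the 15 (15.4% of all genes). The retinoic acid binding protein gene Crabp1 was at 0.41 ± 0.13, the retinaldehyde dehydrogenase genes Aldh1a3 and Aldh1a1 at 0.18 ± 0.072 and -0.48 ± 0.24, and the receptor gene Rara at 0.14 ± 0.085 (SE). Of 20 genes of the bone morphogenetic protein pathway 12 were lower, with a median of -0.018 and 6 highest in wild-type array 3. The antagonist gene Nog had knockout values above all wild-type values, at 0.34 ± 0.075, while the receptor genes Bmpr1b and Bmpr2 were at -0.21 ± 0.093 and -0.082 ± 0.053, and the signal transducer gene Smad9 at 0.25 ± 0.12 (SE). Of 11 genes of insulin-like growth factor signalling 10 were lower, with a median of -0.14. The receptor genes Igf1r, Igf2r and Insr were at -0.29 ± 0.079, -0.16 ± 0.060 and -0.14 ± 0.057, and the adaptor gene Irs1 at -0.14 ± 0.064 (SE). None of the genes of these lists passed the adjusted threshold (limma). At an unadjusted p under 0.05, 2 retinoic acid pathway genes and 1 bone morphogenetic protein pathway gene were higher. At the same level, 3 insulin-like growth factor pathway genes were lower. Over all genes, 11.7% reached this level in either direction and 6.12% were lower at it (limma).

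Transporters of the barrier cells had the highest median wild-type range of the 6 roles, 2.46, with all 5 ranging over at least 1 among wild-type arrays and none doing so among knockout arrays. Slc47a1 encodes an exporter of organic cations. It read 3.65, 3.53 and 3.83 in knockout arrays, against 3.51, 6.25, 7.53 and 3.94 in wild-type arrays. All 3 knockout arrays and wild-type arrays 1 and 4 lay under the dim level of 5.05, and the deposited values carry no detection call. The difference of -1.64 ± 0.86 (SE; limma, adjusted p = 0.483) was the largest in size of the 31, and within females it was -0.073 ± 0.47 (SE).

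Slc6a20a encodes a carrier of proline and other imino acids. It read 7.23, 7.19 and 7.07 in knockout arrays, against 6.95, 8.63, 9.54 and 7.44 in wild-type arrays. The knockout arrays agreed within 0.16, and wild-type array 1 lay under all of them, and the difference was -0.98 ± 0.53 (SE; limma, adjusted p = 0.494). Slc13a4, a sulfate carrier, ranged from 6.02 to 6.25 in knockout arrays and from 6.11 to 8.57 in wild-type arrays. Slc6a13, a carrier of GABA and taurine, ranged from 5.71 to 6.28 in knockout arrays and from 6.01 to 7.74 in wild-type arrays. Slc22a6, an organic anion carrier, ranged from 5.80 to 6.26 in knockout arrays and from 5.98 to 7.34 in wild-type arrays. Their differences were -0.92 ± 0.52, -0.65 ± 0.39 and -0.45 ± 0.30 (SE), and in each of these the knockout and wild-type ranges overlapped at the low end.

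The 4 junction and other genes were likewise highest in wild-type array 3 and next in wild-type array 2. Cdh1 encodes E-cadherin, which joins the barrier cells of the arachnoid. It read 4.25, 4.31 and 4.07 in knockout arrays, against 4.18, 5.59, 7.27 and 4.08 in wild-type arrays. The 3 knockout arrays and wild-type arrays 1 and 4 were dim and close together, and the difference was -1.07 ± 0.67 (SE; limma, adjusted p = 0.551). Gjb2, a gap junction connexin, ranged from 6.77 to 6.87 in knockout arrays and from 6.76 to 8.06 in wild-type arrays. Serping1, the inhibitor of the first complement component, ranged from 7.40 to 7.63 in knockout arrays and from 7.54 to 8.81 in wild-type arrays. Ranbp3l, a Ran-binding nuclear transport factor, ranged from 5.16 to 5.57 in knockout arrays and from 5.34 to 7.40 in wild-type arrays. Their differences were -0.45 ± 0.27, -0.52 ± 0.27 and -0.82 ± 0.43 (SE).

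**Figure D4:**
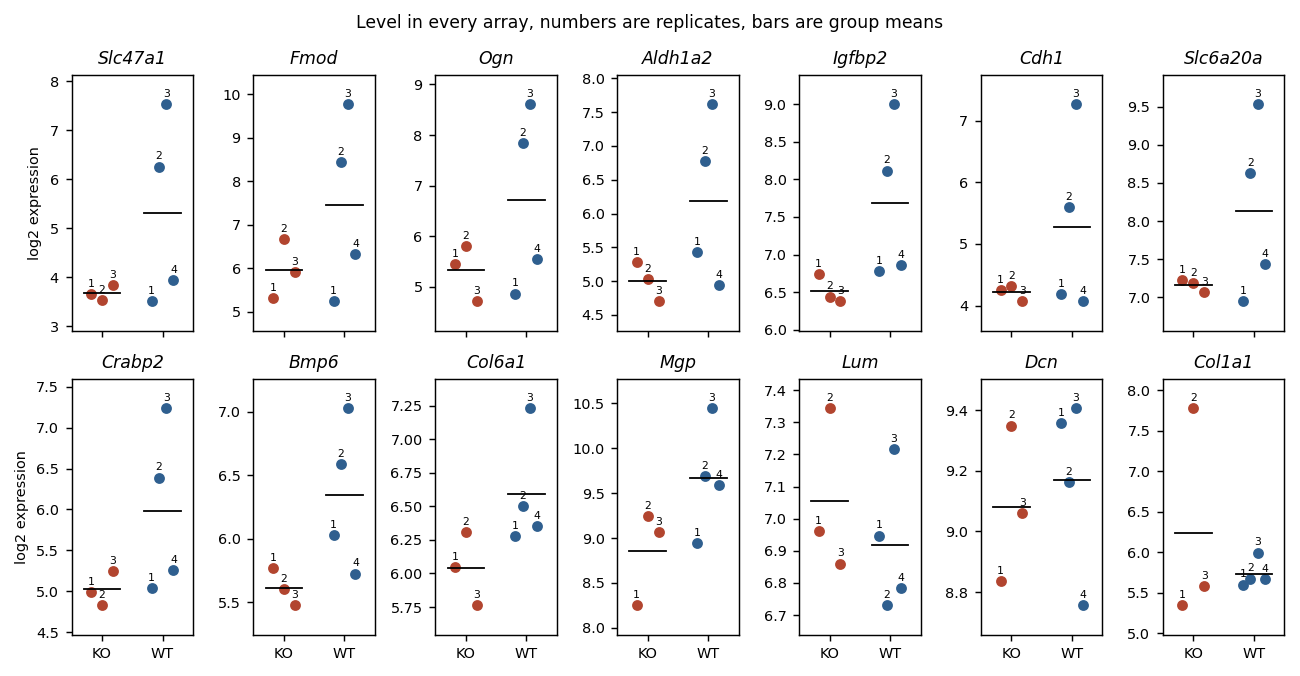
Log2 expression in every array for 14 genes, knockout (KO, 3 arrays) left of wild type (WT, 4 arrays). Small numbers are replicate numbers and horizontal bars are group means, and each panel has its own axis. In Slc47a1, Fmod, Ogn, Aldh1a2, Igfbp2, Cdh1, Slc6a20a and Crabp2, wild-type replicates 2 and 3 stand above every other array, and in Lum and Col1a1 knockout replicate 2 is the highest.

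The leucine-rich proteoglycans, which sit on collagen fibrils and regulate their assembly, differed among themselves in spread, with wild-type ranges of 4.54 for Fmod, 3.74 for Ogn, 0.65 for Dcn and 0.49 for Lum. Fmod, fibromodulin, read 5.30, 6.66 and 5.90 in knockout arrays, against 5.24, 8.44, 9.78 and 6.31 in wild-type arrays. Knockout array 2 lay above wild-type arrays 1 and 4, and the difference was -1.49 ± 0.95 (SE; limma, adjusted p = 0.557). The probe set used for Fmod carries the suffix of probe sets that may also detect related sequences. The 5 other Fmod probe sets differed by -1.19 to -0.70, and the only one without that suffix by -1.19. Ogn, osteoglycin, read 5.45, 5.81 and 4.72 in knockout arrays, against 4.87, 7.84, 8.61 and 5.55 in wild-type arrays. Wild-type arrays 1 and 4 lay within the knockout range here, and the difference was -1.39 ± 0.83 (SE; limma, adjusted p = 0.528). The second Ogn probe set differed by -0.96.

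Dcn and Lum, decorin and lumican, are defining transcripts of fibroblasts. Their wild-type ranges were small beside those of Fmod and Ogn, and above the median of 0.19 over all genes. Dcn read 8.84, 9.35 and 9.06 in knockout arrays, against 9.36, 9.16, 9.41 and 8.76 in wild-type arrays. Wild-type arrays 1 and 3 and knockout array 2 were about equal, and the difference was -0.089 ± 0.17 (SE). Lum read 6.96, 7.34 and 6.86 in knockout arrays, against 6.95, 6.73, 7.22 and 6.78 in wild-type arrays. Its lowest array of all was wild-type array 2, and the difference was 0.14 ± 0.15 (SE).

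Another 3 matrix-bound proteins complete this role. Mgp, matrix Gla protein, an inhibitor of calcification, read 8.25, 9.24 and 9.06 in knockout arrays, against 8.95, 9.69, 10.45 and 9.59 in wild-type arrays. Knockout arrays 2 and 3 lay above wild-type array 1 and below the other wild-type arrays, and the difference was -0.82 ± 0.34 (SE; limma, adjusted p = 0.403). It was about equal in size within males, -0.91 ± 0.28, and within females, -1.02 ± 0.34 (SE). Aebp1, a collagen-binding secreted protein, ranged from 6.53 to 6.83 in knockout arrays and from 6.74 to 7.77 in wild-type arrays, with a difference of -0.42 ± 0.22 (SE). Islr, a secreted or membrane-bound protein with leucine-rich repeats, differed by -0.27 ± 0.35 (SE), and its lowest array was wild-type array 4, at 6.79.

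Of the collagens and fibronectin, 4 of 5 were lower in the knockout and 1 higher. Col6a1, a chain of type VI collagen, read 6.05, 6.31 and 5.76 in knockout arrays, against 6.28, 6.50, 7.23 and 6.35 in wild-type arrays. Knockout array 2 alone reached into the wild-type range, just above wild-type array 1, and the difference was -0.55 ± 0.23 (SE; limma, adjusted p = 0.403). Fn1, fibronectin, ranged from 8.24 to 8.54 in knockout arrays and from 8.36 to 9.55 in wild-type arrays, with a difference of -0.54 ± 0.23 (SE; limma, adjusted p = 0.409). A dimmer Fn1 probe set differed by 0.15. Col3a1, type III collagen, had a range of 1.51 among knockout arrays and 3.53 among wild-type arrays, and differed by -0.71 ± 0.70 (SE).

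Col1a1 and Col1a2 encode the chains of type I collagen and departed from each other. Col1a1 read 5.35, 7.78 and 5.58 in knockout arrays, against 5.60, 5.68, 5.99 and 5.67 in wild-type arrays. Knockout array 2 stood above every other array, and the group difference of 0.50 ± 0.50 (SE; limma, adjusted p = 0.716) became -0.27 without it. The dimmer Col1a1 probe set was also highest in knockout array 2, and differed by 0.28 ± 0.11 (SE). It read 5.57, 5.97 and 5.63 in knockout arrays, against 5.38, 5.44, 5.60 and 5.37 in wild-type arrays. In this dimmer probe set, knockout arrays 1 and 3 lay above wild-type arrays 1, 2 and 4, and knockout array 1 lay below wild-type array 3. In the probe set used for the gene, knockout arrays 1 and 3 lay below every wild-type array. The dimmer probe set was not fitted without knockout array 2. Col1a2 read 8.30, 9.42 and 8.56 in knockout arrays, against 8.56, 9.26, 10.15 and 8.91 in wild-type arrays. It had wild-type array 3 as its highest and knockout array 2 as its second highest array, with a difference of -0.46 ± 0.37 (SE; limma, adjusted p = 0.65).

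Within the knockout, matrix genes and the other genes took different orders. Knockout array 2 was the highest of the 3 knockout arrays for 10 of the 12 collagen, fibronectin and matrix-bound genes, and for 4 of the other 19, against 32.0% of all genes. Among those 19, knockout array 1 was the highest for 12, against 37.0% of all genes. Blood cell markers moved with knockout array 2. The summed signal of 8 blood cell genes, on the linear scale, was 280.1 to 850.2 in knockout arrays, with the highest in knockout array 2, and 247.4 to 289.6 in wild-type arrays. The neutrophil gene S100a9 read 4.32, 7.45 and 4.67 in knockout arrays, against 4.02 to 4.67 in wild-type arrays, and the red cell enzyme gene Alas2 read 5.72, 6.85 and 6.12, against 5.64 to 5.99. Camp and Ltf, of neutrophils, differed by 0.58 ± 0.22 and 0.13 ± 0.066 (SE), both without overlap. The part of blood or bone-derived cells in the collagen values of that array was not tested.

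The 4 transcription factors ranged over 0.72 to 1.84 among wild-type arrays. Foxc1, a forkhead factor needed for meningeal development in mouse, read between 6.15 and 6.31 in knockout arrays and between 6.15 and 7.14 in wild-type arrays, with a difference of -0.39 ± 0.20 (SE). Its second probe set differed by -0.46. Tbx18, a T-box factor of mesenchymal and mural cells, differed by -0.39 ± 0.27, and Osr1, a zinc finger factor of mesenchymal progenitors, by -0.47 ± 0.38 (SE). Foxd1, a forkhead factor of stromal progenitors, differed by -0.25 ± 0.15 (SE) and had its lowest level, 5.92, in wild-type array 4. All 4 had their highest level in wild-type array 3.

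Since the mutation removes a factor that binds the cyclic AMP response element, promoters were searched for that element on both strands. RefSeq promoters of build GRCm38.p6, which run from 250 bases before to 50 bases after each gene's start, were found for 20 of the 31 genes, 23 promoters in all. The others were Col1a1, Fn1, Dcn, Lum, Mgp, Bmp7, Crabp2, Slc47a1, Osr1, Cdh1 and Serping1. The full element TGACGTCA was in 0 of the 23, against 1.79% of 32851 mouse promoters. The shorter element TGACG was in 5 of the 23, against 20.8%, and the full element contains it. A forkhead motif, TGTTTAC, was in that of Col6a1 alone, against 3.65%, and a T-box motif, AGGTGTGA, in 0, against 1.28%. The 4 short elements before the start are shown in capitals, on the strand of the gene, to show where the matches upstream of a start lie. They were chosen for display after the levels were known. That of Slc6a20a lies after the start.
Aebp1: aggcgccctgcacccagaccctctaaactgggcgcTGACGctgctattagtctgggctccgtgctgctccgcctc
Foxc1: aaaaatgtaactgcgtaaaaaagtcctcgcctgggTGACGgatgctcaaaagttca
Foxd1: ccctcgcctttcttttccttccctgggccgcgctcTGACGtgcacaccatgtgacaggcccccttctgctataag
Gjb2: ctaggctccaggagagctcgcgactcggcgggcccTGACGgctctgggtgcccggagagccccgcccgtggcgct
The stretches lie at chr11:5861742-5861816, plus strand, for Aebp1, at chr13:31806590-31806645, plus strand, for Foxc1, at chr13:98354144-98354218, plus strand, for Foxd1, and at chr14:57104815-57104889, minus strand, for Gjb2. The first base of the element is at -89 in Aebp1, -21 in Foxc1, -66 in Foxd1 and -152 in Gjb2, counted from the gene's start. The log2 differences of the 5 genes were -0.42 for Aebp1, -0.39 for Foxc1, -0.25 for Foxd1, -0.45 for Gjb2 and -0.98 for Slc6a20a, on both sides of the median of -0.54. A match is a description of the sequence and not a binding site.

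Further fibroblast genes, from lists that exclude the 31, went the same way at a smaller size. Of 24 other fibroblast and meningeal genes 18 were lower in the knockout (48.5% of all genes), with a median of -0.14. Wild-type array 3 was the highest for 18 of the 24 (15.4% of all genes). Among them, Igf2, a growth factor of the meninges and choroid plexus, read 8.91, 9.22 and 8.61 in knockout arrays, against 8.78, 10.13, 11.24 and 9.19 in wild-type arrays. Foxc2, the paralog of Foxc1, read 4.16, 4.16 and 3.60, against 4.12, 5.60, 6.57 and 3.86. Like Igfbp2, both were highest in wild-type array 3 and next in wild-type array 2, and they were chosen after their values were seen. Of the genes named by rule, the sodium-coupled carrier gene Slc6a12 was at -0.36 ± 0.13, Ahnak at -0.23 ± 0.092 and the secreted signal gene Wnt6 at -0.31 ± 0.13 (SE). The cystine exchanger gene Slc7a11, which meningeal fibroblasts express, showed another order. It read 6.60, 6.94 and 7.10 in knockout arrays, against 7.68, 7.86, 7.86 and 7.85 in wild-type arrays, so that all 4 wild-type arrays agreed within 0.18 and none stood apart. The groups did not overlap, and the difference was -0.93 ± 0.11 (SE; limma, adjusted p = 0.0624).

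Of 30 other matrix genes of fibroblasts 21 were lower (48.5% of all genes), with a median of -0.11. Wild-type array 3 was the highest for 13 of the 30 (15.4% of all genes). Pcolce, an enhancer of collagen processing, was at -0.75 ± 0.34, the laminin gene Lama1 at -0.32 ± 0.091, and the collagen genes Col8a2 and Col13a1 at -0.30 ± 0.14 and 0.21 ± 0.089 (SE). Lama1 was lower in all 3 knockout arrays than in any wild-type array. None of the genes of both lists passed the adjusted threshold (limma).

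**Figure D5:**
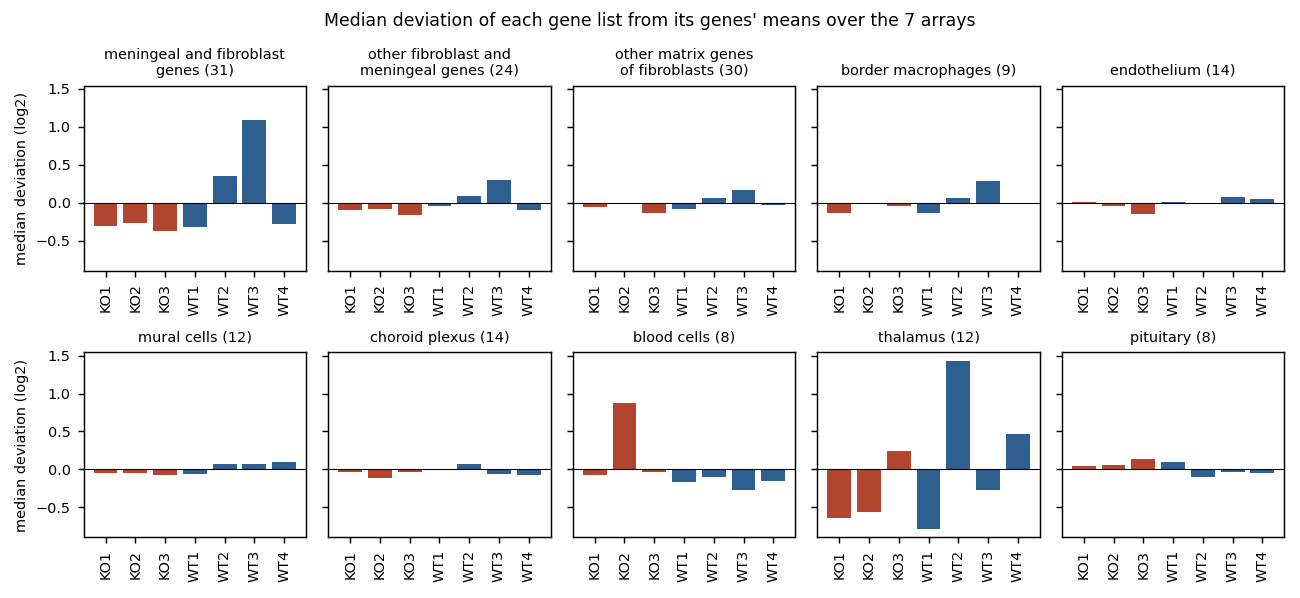
Each bar is the median, over the genes of a list, of the log2 deviation from the gene's mean over the 7 arrays, with knockout arrays (KO) left of wild-type arrays (WT) and the number of genes in parentheses. The meningeal and fibroblast genes stand highest in wild-type array 3 (1.09), the thalamus genes in wild-type array 2 (1.43) and the blood cell genes in knockout array 2 (0.87), while the choroid plexus, endothelium and mural cell lists stay close to 0.

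Markers of neighbouring tissues were read in the same arrays. The summed linear signal of the 31 genes was 3525 to 4654 in knockout arrays and 3974 to 11180 in wild-type arrays. The 9 border macrophage genes, of cells that live in the meninges, followed it in part, with 406.1 to 447.7 in knockout arrays and 394.4 to 566.6 in wild-type arrays, and 5 of 9 were highest in wild-type array 3. All 9 were lower in the knockout, with Cbr2 at -0.25 ± 0.094, Stab1 at -0.19 ± 0.093, Cd163 at -0.19 ± 0.14 and F13a1 at -0.32 ± 0.27 (SE). The 14 choroid plexus genes gave 759.6 to 883.6 in knockout arrays and 811.7 to 1058 in wild-type arrays, with a median deviation of -0.057 in wild-type array 3. Sostdc1 was at -0.23 ± 0.075, Tmem72 at 0.23 ± 0.092, Steap1 at -0.27 ± 0.12 and Kl at -0.22 ± 0.10 (SE).

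Vessel genes were also lower in part, without the spread of the meningeal genes. Of 14 endothelial genes 11 were lower (48.5% of all genes), with a median of -0.075, and 3 were highest in wild-type array 3 (15.4%). Vwf, von Willebrand factor, had no overlap, at -0.74 ± 0.13 (SE; limma, adjusted p = 0.171), and Slco1a4, Abcb1a and Flt1 were at -0.24 ± 0.095, -0.16 ± 0.076 and -0.12 ± 0.061 (SE). Of 12 mural cell genes 8 were lower, with a median of -0.11. Pdgfrb, the pericyte receptor gene, had no overlap at -0.40 ± 0.11, Acta2 and Myh11 of smooth muscle were at -0.34 ± 0.12 and -0.33 ± 0.14, and Anpep was at 0.19 ± 0.087 (SE). None of these lists had a gene past the adjusted threshold (limma).

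The thalamus genes also varied widely among wild-type arrays, with another array at the top. All 12 were lower in the knockout, with a median of -0.52, 0 were highest in wild-type array 3, and their summed signal was 3793 to 6284 in knockout arrays and 3613 to 13190 in wild-type arrays. Wild-type array 2 was highest for Adarb1, Plekhg1, Rora and Rgs16, which differed by -0.33 ± 0.15, -0.60 ± 0.44, -0.36 ± 0.28 and -0.35 ± 0.28 (SE). The 8 pituitary genes summed to 972.7 to 1113 in knockout arrays and to 1503, 542.9, 482.3 and 351.5 in wild-type arrays 1 to 4, so that both high and low meningeal arrays had low pituitary signal. Tshb, Cga, Lhb and Fshb differed by 1.82 ± 0.62, 0.99 ± 0.59, -0.17 ± 0.11 and 0.21 ± 0.15 (SE). The part that the amount of adjoining tissue in each piece has in the meningeal values was not tested.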

How the data were processed

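The deposited series matrix holds log2 expression per probe set for 7 arrays, made by the authors. Per the submitters' processing notes, R 2.10.0 was used with affy and RMA, whose order and settings are not given in the sources used here, nor is the build behind the array annotation. Control probe sets were left out, probe sets of several symbols were not used, and the probe set with the highest mean stood for its gene (18193 genes). Genotypes were compared with limma 3.58.1 (R 4.3.3), by lmFit and two-sided eBayes tests with a trend on intensity. P-values were adjusted over all genes after Benjamini-Hochberg, and the threshold was 0.05. Array medians were 6.20 to 6.24, and the number of arrays limits the precision. P-values set each difference against the spread among these samples within a genotype, moderated over genes by eBayes.

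Tested on simulated arrays of 18193 genes, the genotype fit found 69.2% of the planted log2 changes of size 0.5 and 96.2% of those of size 1, with 6.1 and 11.5 false calls on average per simulation. These shares are over genes with a median wild-type SD of 0.085, while that of the 31 genes was 0.628, so they do not describe what could be found among the 31. The main fit is unpaired, and a fit with same-numbered arrays as pairs was run beside it. Deviations of same-numbered arrays of both genotypes had correlations over genes of 0.318, 0.101 and 0.143 for numbers 1, 2 and 3. Differently numbered pairs reached 0.126 (knockout 3 with wild type 2) and 0.103 (knockout 3 with wild type 4). Both are above the 0.101 of number 2, so these correlations do not establish pairs. The pairing follows the replicate numbers in the labels, which do not state pairs, and same-numbered arrays also shared their sex as read from the arrays.

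The members and lists were chosen with earlier results of these data known. Every array is printed for the 8 members with the largest difference, the 4 with the smallest p, the 2 with the smallest difference and those higher in the knockout, and up to 4 genes of each other list are named by smallest p. Not all lists named here have every gene: 10 listed symbols had no probe set of a single symbol and were not analysed here. Astrocyte, ependymal and hypothalamic neuron lists had medians of 0.0019, 0.018 and 0.088. The alternatives tried were array weights, eBayes without the trend, leaving out dim probe sets, another normalization or probe set per gene, sex as a covariate, the replicate block and leaving out each array. Python 3.11.15 and matplotlib 3.10.9 made the figures.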

Additional observations from a re-analysis of the deposited data

Results flagged for a closer look

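For 7 of the 31 genes both male knockout arrays lay below both male wild-type arrays, and the female knockout array lay above both female wild-type arrays. Over all genes, 20.8% had that order in males and 35.1% had that order in females. The share of all genes with both was not counted, so the 7 cannot be set against it. The difference of the knockout effect, males minus females on the log2 scale, was -0.75 for Bmp7, -1.57 for Slc6a13, -1.96 for Slc13a4, -1.26 for Slc22a6, -1.11 for Tbx18, -1.48 for Osr1 and -2.36 for Cdh1. The test of that difference gave unadjusted p-values of 0.00701 to 0.0395 and did not pass for any of them after adjustment (limma, adjusted p = 1.0 each). Sex was read from the arrays, and a single female knockout array carries the female side. The male wild-type arrays are wild-type arrays 2 and 3, picked for high values in these genes, so the order in males was fixed in advance. No group of 4 wild-type arrays had a single array beyond Dixon's critical value for any of the 31 genes. That test looks for 1 array apart, so it says little where wild-type arrays 2 and 3 were high together. Groups of 3 were not examined in this way.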

How the results depend on the processing

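The count past the adjusted threshold was 0 in every fit run. With an array left out, the count at an unadjusted p under 0.05 ran from 0 to 19, that of genes without overlap from 1 to 11, that of genes lower from 28 to 31, the median difference from -0.713 to -0.271 and the median wild-type SD from 0.404 to 0.769. Leaving out an array can only add genes without overlap. Their share of all genes was not counted in these fits or in arrays 1 to 3. The count at an unadjusted p under 0.05 was 2 with eBayes without a trend (11.2% of all genes), 3 with array weights (13.1%), 20 with sex as a covariate (12.8%), 18 with the replicate block (11.4%) and 11 in the same arrays unpaired (9.15%), where genes without overlap numbered 5. The replicate block changed no other call. With wild-type arrays 2 and 3 left out, a choice made after seeing the data, it was 0 (6.67%), with 19 genes lower, and the fewer arrays lower the power too. Within males, also added later, it was 24 (10.5%), with the knockout below without overlap for 27 (20.8% of all genes). The male wild-type arrays are wild-type arrays 2 and 3, so that direction was fixed in advance. Within females, 17 genes were lower. The single knockout array there lay below both wild-type arrays for 9 (32.1% of all genes) and above both for 8 (35.1%).

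Signs of single genes turned under the same later choices. Without wild-type arrays 2 and 3, Col1a2 was at 0.027, Col3a1 at 0.20, Dcn at 0.024, Ogn at 0.12, Fmod at 0.18, Islr at 0.083, Slc6a13 at 0.0079, Tbx18 at 0.029, Osr1 at 0.19 and Cdh1 at 0.081. Within females, Col1a1 was at -0.29, Ogn at 0.24, Islr at 0.50, Bmp7 at 0.22, Aldh1a2 at 0.094, Slc6a13 at 0.17, Slc6a20a at 0.034, Slc13a4 at 0.098, Slc22a6 at 0.25, Foxc1 at 0.0025, Tbx18 at 0.21, Osr1 at 0.30, Cdh1 at 0.12 and Serping1 at 0.030. With an array left out, Dcn ran from -0.227 to 0.0335, Col1a1 from -0.272 to 0.943 and Lum from -0.00856 to 0.235. The cause was not tested. With dim probe sets left out, Slc47a1, Cdh1 and Osr1 were not tested and 26 of 28 genes were lower.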

Other observations

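Outside the 31 genes, many of the largest wild-type ranges belonged to sex transcripts and to thalamus and pituitary genes. Among the other genes with a mean level above 5.05, the 15 with the largest wild-type range included the sex transcripts Xist, Eif2s3y, Kdm5d and Uty, together with Shox2, Gbx2, Tnnt1 and Prkcd of the thalamus list and Synpo2 and Gabrd. Each of these last 6 was highest in wild-type array 2. The pituitary genes Cga and Tshb were among them as well. Lhx8, a transcription factor of basal forebrain neurons, read 5.17, 4.93 and 4.80 in knockout arrays, against 5.34, 8.39, 6.96 and 5.13 in wild-type arrays. It shares its 2 high arrays with the meningeal genes, in the opposite order.

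Gdpd3, a phosphodiesterase family gene, read 8.95, 9.33 and 8.04 in knockout arrays, against 8.53, 5.64, 5.82 and 5.77 in wild-type arrays, with a difference of 2.33 ± 0.67 (SE; limma, adjusted p = 0.285). Mid1, a ubiquitin ligase gene, read 8.87, 9.49 and 7.03 in knockout arrays, against 9.05, 8.57, 5.16 and 8.21 in wild-type arrays. In these 2 genes wild-type arrays 2 and 3 do not stand apart together from the others as they do in the meningeal genes.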
